A study of Mus musculus with 13 samples.

Results

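The type I interferon response was followed in the brain microvasculature of male CD1 mice through 40 genes, which were found by gene symbol among the 47643 genes of the count table. All 40 were found, and 39 of them had enough reads to be tested, out of 17285 genes tested in all. The vessels were isolated 28 h after the first injection from mice aged 8 to 10 weeks, and RNA was sequenced from 4 mice of the sham-vehicle group, 5 of the LPS-vehicle group and 4 of the LPS-CPD-4645 group, each library being 1 mouse. Lipopolysaccharide (LPS), a component of the bacterial outer membrane, was injected intraperitoneally at 3 mg/kg at 0, 6 and 24 h in both LPS groups. CPD-4645, a covalent inhibitor of monoacylglycerol lipase (the enzyme that degrades the endocannabinoid 2-arachidonoylglycerol), was given subcutaneously at 10 mg/kg, 30 min after each LPS dose by the labels, in a vehicle of DMSO, Cremophor and saline. The labels name no engineered allele in any group.

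Type I interferons signal through a receptor made of IFNAR1 and IFNAR2. The receptor activates the kinases JAK1 and TYK2, which phosphorylate STAT proteins. STAT2 joins IRF9 in a complex that binds interferon-stimulated response elements (ISREs) in front of its target genes. The targets encode sensors of foreign nucleic acid, proteins that block viral RNA and viral entry, and feedback regulators of the pathway itself. Cells of the brain vessel wall and glia are known to respond to interferon, and LPS can induce interferon through TLR4.

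The promoters of the members often held the response element by its letters. RefSeq promoter windows (GRCm38.p6), which run from 250 bases before the annotated start to 50 bases from it, were found for 30 of the 40 genes. The letters GAAANNGAAA, searched on both strands, occurred in 14 of these 30 genes (46.7%), against 3.99% of the 27025 genes with a window. The gamma-activated site (GAS), searched as TTCNNNGAA, which reads the same on both strands, occurred in 8 of the 30 genes (26.7%), against 9.55% of all genes. *Bst2* and *Ifitm3* each held a GAS match that overlapped an ISRE match.

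Upstream stretches with the match are printed for 7 members, because they hold the element through which the pathway is known to act and because their RNA levels carry the results that follow. Each is written 5′ to 3′ in the direction of the gene, and the capitals mark the bases covered by ISRE matches in either orientation. The positions on GRCm38.p6 are chr4:156200850-156200921 on the minus strand for *Isg15*, chr19:34640760-34640838 on the plus strand for *Ifit1*, chr19:34583348-34583441 on the plus strand for *Ifit3*, chr5:120907526-120907570 on the minus strand for *Oas1a*, chr8:71537562-71537627 on the minus strand for *Bst2*, chr12:26456538-26456597 on the minus strand for *Rsad2* and chr10:128270251-128270310 on the plus strand for *Stat2*.
Isg15: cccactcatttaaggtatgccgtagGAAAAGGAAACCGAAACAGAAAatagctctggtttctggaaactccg
Ifit1: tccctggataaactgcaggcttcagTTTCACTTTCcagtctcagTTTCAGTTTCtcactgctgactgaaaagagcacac
Ifit3: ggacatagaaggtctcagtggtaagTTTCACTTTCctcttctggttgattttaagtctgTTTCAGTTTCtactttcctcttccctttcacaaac
Oas1a: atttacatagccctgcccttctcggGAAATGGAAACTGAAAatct
Bst2: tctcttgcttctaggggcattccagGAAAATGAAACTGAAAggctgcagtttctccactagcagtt
Rsad2: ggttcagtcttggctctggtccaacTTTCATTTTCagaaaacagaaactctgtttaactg
Stat2: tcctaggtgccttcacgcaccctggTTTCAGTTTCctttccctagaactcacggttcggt
*Isg15* held 3 overlapping matches, *Oas1a* and *Bst2* held 2 overlapping matches each, and *Ifit1* and *Ifit3* held 2 separate ones. The stretch in front of *Ifit3b*, a near-copy of *Ifit3* in the same gene cluster, was letter for letter that of *Ifit3* and is not printed again. A match describes the sequence and is not evidence that a factor was bound there.

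**Figure D1:**
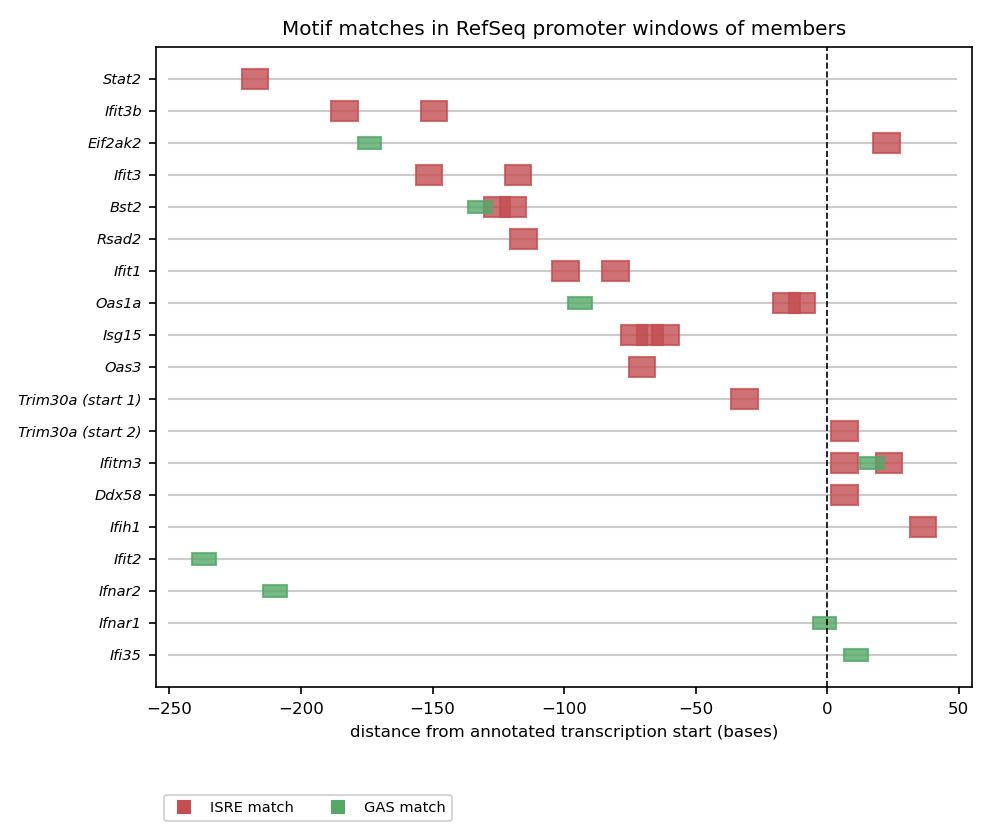
Positions of ISRE matches (red) and GAS matches (green) in the promoter windows of members with at least 1 match; the x axis is the distance in bases from the annotated transcription start (dashed line), and each grey line is 1 window of 1 gene. At least 1 match lies upstream of the start in 10 of the 14 genes with an ISRE match, and those of *Ddx58*, *Eif2ak2*, *Ifih1* and *Ifitm3* lie just after it.

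The libraries held 7813559 to 55133373 counted reads, with a median of 26989885. LPS-vehicle mouse 2 was the deepest, and LPS-CPD-4645 mouse 1 and LPS-vehicle mouse 3 were the shallowest. The 8 endothelial markers were all detected, at a summed 419 to 1004 CPM per mouse (read counts scaled to a common library size), but 6 neuronal markers summed to 7443 to 10050 CPM, so RNA of brain parenchyma was present. Blood was not flushed out of the brains used for sequencing, and cells in the vessel lumen were part of the material. In bulk RNA of this kind, fewer cells of a type and less RNA per cell cannot be told apart. Nothing in the labels says whether mice of a group were handled together, and the p-values measure the spread between these mice.

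Before any treatment effect, the members differed widely in level. Per kb of exon (RPKM), *Ifitm3*, which encodes a membrane protein that blocks the entry of viruses, was the highest in the sham-vehicle mice, at 30.5 ± 9.41 RPKM (SD, n = 4). The receptor gene *Ifnar1* at 8.82 ± 0.82 and the mitochondrial nucleotide kinase gene *Cmpk2* at 7.24 ± 0.776 RPKM came next. *Ifnar2* followed at 5.64 ± 0.973 and *Stat2* at 4.66 ± 0.355 RPKM. From *Ifnar1* to *Stat2*, the mean ± SD of each gene overlapped that of the next, while *Ifitm3* stood apart. At the lower end stood *Zbp1* at 0.0783 ± 0.0363, *Oas2* at 0.0478 ± 0.0204 and *Oas3* at 0.0148 ± 0.0208 RPKM. In the LPS-vehicle mice *Ifitm3* was again the highest, at 214 ± 55.9 RPKM (n = 5), followed by *Bst2* at 25.8 ± 9.92, *Isg15* at 15.01 ± 8.26 and *Stat2* at 11.7 ± 3.43 RPKM, of which the last 3 had overlapping mean ± SD between neighbours.

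LPS raised most of the response. Of the 39 members tested, 33 (84.6%) were higher in LPS-vehicle than in sham-vehicle mice by a call that asks for an adjusted p not above 0.05 together with a 2-fold or larger change (edgeR's quasi-likelihood test, Benjamini-Hochberg over all genes tested), and 4.68% of all genes tested were. The adjusted p alone also passed 33, against 11.1% of all genes, and none lower, against 8.86%. None was lower, against 0.995% of all genes, and none was lower at an unadjusted p under 0.05 or by limma-voom or DESeq2. In 31 members the whole LPS-vehicle group exceeded the whole sham-vehicle group, against 9.68% of all genes, and in none was it wholly below, against 8.44%. In 37 of 39 the log2 fold change was above 0, where 49.9% of all genes were. The median log2 fold change of the members was 1.97, beside -7e-04 over all genes tested. The *Zbp1* sensor, the transcription factor *Irf7* and the oligoadenylate synthetase-like gene *Oasl2* rose the most.

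**Figure D2:**
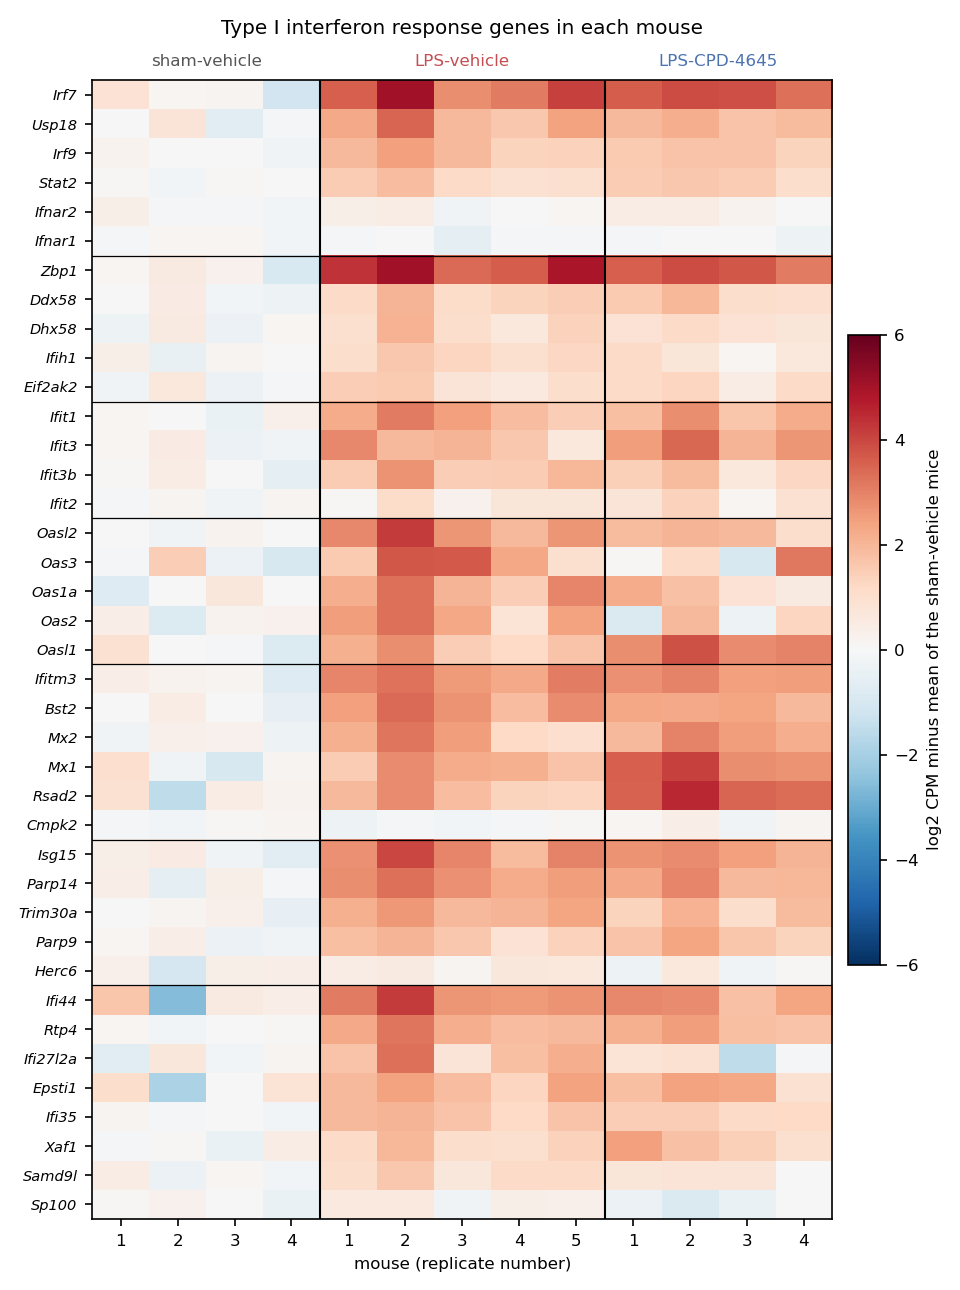
Level of the 39 tested members (lines) in each of the 13 mice (columns, grouped by treatment and named by replicate number), as log2 CPM with a prior count of 2 minus the mean of the 4 sham-vehicle mice; black horizontal lines separate the roles, in the order used in the text. Red fills most of the LPS-vehicle and LPS-CPD-4645 columns, the darkest being *Zbp1* and *Irf7*, while *Ifnar1*, *Ifnar2* and *Cmpk2* stay pale in every mouse.

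The receptor genes did not move with the rest. *Ifnar1* was at 49.9, 56.4, 56.6 and 46.8 CPM in the sham-vehicle mice and at 50.1, 52.0, 34.8, 48.1 and 50.4 CPM in the LPS-vehicle mice, with a log2 difference of −0.15 (SE 0.11, edgeR adjusted p = 0.394). *Ifnar2* was at 16.5 to 23.6 CPM and 16.3 to 25.1 CPM, with a log2 difference of 0.16 (SE 0.15, adjusted p = 0.504). The groups overlapped for both genes. Downstream of the receptor, 4 of the 4 other signalling members rose.

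*Stat2* and *Irf9*, which encode subunits of the ISRE-binding complex, rose in all LPS-vehicle mice. *Irf9* was at 15.1, 13.1, 13.03 and 11.3 CPM in sham-vehicle mice and at 50.7, 73.1, 51.2, 33.1 and 34.7 CPM in LPS-vehicle mice, a log2 change of 1.88 (SE 0.19, adjusted p = 1.46e-06). *Stat2* went from 24.6 to 29.0 CPM in the sham-vehicle group to 52.4 to 100.1 CPM, a log2 change of 1.33 (SE 0.17, adjusted p = 1.7e-05). No mouse of one group reached the range of the other for either gene. *Irf9* shares 123 exon bases with *Rnf31* on the same strand, and reads that fit both genes may be missing from its count.

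*Irf7*, the transcription factor that amplifies interferon production, was at 3.79, 2.17, 2.27 and 0.889 CPM in sham-vehicle mice and at 25, 70.0, 14.5, 18.3 and 36.5 CPM in LPS-vehicle mice. The groups did not overlap, although LPS-vehicle mouse 2 stood well above the others. The log2 fold change was 3.82 (SE 0.43, adjusted p = 4.36e-06). *Irf7* shares 45 exon bases with *Phrf1* on the opposite strand. *Usp18*, which encodes the protease that removes ISG15 from proteins and restrains the receptor, rose from 1.28 ± 0.572 to 7.07 ± 4.05 CPM, a log2 change of 2.49 (SE 0.36, adjusted p = 7.55e-05).

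All 5 nucleic acid sensors rose. *Zbp1*, the sensor of Z-form nucleic acid that can trigger necroptosis, was at 0.285, 0.402, 0.319 and 0.0988 CPM in the sham-vehicle mice and at 6.46, 10.7, 3.40, 3.998 and 9.72 CPM in the LPS-vehicle mice. The ranges were far apart, and its fitted log2 fold change of 4.61 (SE 0.42, adjusted p = 3.88e-07) was the largest among the members. Its sham-vehicle values stand for 2 to 10 reads, so the fitted size depends on few reads. The 3 RIG-I-like helicases rose less: *Ddx58* (RIG-I) by a log2 change of 1.46 (SE 0.26), *Dhx58* (LGP2) by 1.33 (SE 0.30) and *Ifih1* (MDA5) by 1.25 (SE 0.25).

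*Eif2ak2*, the RNA-activated kinase PKR that halts translation, was at 2.67 to 5.47 CPM in sham-vehicle and 5.17 to 10.6 CPM in LPS-vehicle mice. The groups overlapped, and its log2 fold change of 1.11 (SE 0.26, adjusted p = 0.00575) was close to the 2-fold limit. It fell under that limit without sham-vehicle mouse 3 (log2 fold change 0.995) or LPS-vehicle mouse 2 (0.972). *Dhx58* shares 141 exon bases with an antisense transcript, *Dhx58os*.

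The IFIT genes, whose proteins bind foreign RNA ends and block their translation, rose in 3 of 4 cases. *Ifit1* was at 3.02, 2.86, 2.11 and 3.51 CPM in sham-vehicle mice and at 13.4, 25.5, 16.1, 10.4 and 8.08 CPM in LPS-vehicle mice, with no overlap and a log2 change of 2.36 (SE 0.32, adjusted p = 2.93e-05). *Ifit3* and *Ifit3b* rose by log2 fold changes of 1.97 (SE 0.36) and 1.93 (SE 0.31). Because these near-copies may share reads, the level of each alone is uncertain. Their sum, which may miss reads that fit both, also separated the groups, at 4.69 to 8.21 CPM against 14.99 to 33.8 CPM. *Ifit2* was the exception. It was at 7.84, 9.37, 7.37 and 9.58 CPM in sham-vehicle mice and at 8.96, 18.1, 10.1, 14.2 and 14.1 CPM in LPS-vehicle mice, with overlap and a log2 difference of 0.63 (SE 0.23, adjusted p = 0.0563).

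The oligoadenylate synthetases make the messenger that activates RNase L, and the OASL proteins are oligoadenylate synthetase-like proteins. All 5 were higher after LPS. *Oasl2* was at 2.68, 2.25, 3.03 and 2.67 CPM in the sham-vehicle mice and at 19.9, 49.7, 16.9, 10.4 and 17.1 CPM in the LPS-vehicle mice, without overlap, a log2 change of 3.11 (SE 0.37, adjusted p = 8.7e-06). *Oas1a*, *Oas2* and *Oasl1* rose by log2 fold changes of 2.83 (SE 0.59), 2.71 (SE 0.67) and 2.00 (SE 0.45) from sham-vehicle means of 0.211, 0.213 and 0.351 CPM.

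*Oas3* was scarce, at 0.057, 0.322, 0.0398 and 0 CPM against 0.343, 1.81, 1.76, 0.63 and 0.209 CPM. The sham-vehicle values stand for 2, 8, 1 and 0 reads, so the fitted change is imprecise. The groups overlapped, and the log2 fold change of 3.07 had an SE of 1.06 and an adjusted p of 0.0496. Its adjusted p was 0.0548 to 0.133 when LPS-CPD-4645 mouse 1 or 2, sham-vehicle mouse 1, 3 or 4, or LPS-vehicle mouse 3 was left out, and 0.0902 by limma-voom.

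Of the 6 other antiviral effectors, 5 rose. *Ifitm3* was at 26.4, 22.7, 21.99 and 11.6 CPM in the sham-vehicle mice and at 151, 190, 117, 97.1 and 169 CPM in the LPS-vehicle mice. The groups were far apart, with a log2 change of 2.80 (SE 0.22, adjusted p = 6.68e-08). *Bst2*, which encodes tetherin, a protein that holds budding virions at the cell surface, rose by 2.72 (SE 0.26). *Mx2* and *Mx1*, dynamin-like antiviral GTPase genes, rose by 2.24 (SE 0.39) and 2.16 (SE 0.48); *Mx2* is annotated as a polymorphic pseudogene in GENCODE M21. *Rsad2*, which encodes viperin, an enzyme that makes a chain-terminating nucleotide, rose by 1.77 (SE 0.41, adjusted p = 0.00488); by limma with sample quality weights its adjusted p was 0.0515.

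*Cmpk2*, the neighbour of *Rsad2* on chromosome 12, did not rise with it. It was at 28.1, 26.9, 31.4 and 34.1 CPM in the sham-vehicle mice and at 24.6, 28.6, 26.7, 28.3 and 31.1 CPM in the LPS-vehicle mice. The ranges overlapped, and the log2 difference was −0.11 (SE 0.12, adjusted p = 0.575).

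Among genes of ISG15 conjugation, ubiquitin ligation and ADP-ribosylation, 4 of 5 tested members rose. *Isg15*, a ubiquitin-like protein gene, was at 1.65, 1.85, 1.11 and 0.79 CPM in sham-vehicle mice and at 9.06, 21.8, 10.2, 5.04 and 10.6 CPM in LPS-vehicle mice, without overlap, a log2 change of 3.05 (SE 0.37, adjusted p = 9.1e-06). *Parp14*, *Trim30a* and *Parp9* rose by log2 fold changes of 2.74 (SE 0.28), 2.25 (SE 0.24) and 1.58 (SE 0.26). *Herc6*, which encodes the mouse ligase that attaches ISG15, was at 2.17 to 5.93 CPM in sham-vehicle and 5.04 to 7.23 CPM in LPS-vehicle mice, with overlap and a log2 difference of 0.42 (SE 0.26, adjusted p = 0.285). *Dtx3l*, the partner of *Parp9*, had 104 reads in all 13 libraries together and was not tested; it shares 458 exon bases with *Parp9* on the opposite strand.

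The remaining 8 members have varied or less settled roles, and 7 of them rose. *Ifi44* rose by a log2 change of 2.68 (SE 0.58), *Rtp4*, a chaperone gene of G-protein-coupled receptors, by 2.42 (SE 0.26), *Ifi27l2a* by 2.25 (SE 0.52), *Epsti1* by 1.90 (SE 0.62), *Ifi35* by 1.75 (SE 0.18), the apoptosis-linked gene *Xaf1* by 1.36 (SE 0.28) and *Samd9l* by 1.16 (SE 0.24). Leaving out 1 mouse gave 2.24 to 3.48 for *Ifi44*. *Epsti1* had a sham-vehicle mean of only 0.27 CPM and an adjusted p of 0.0388, which was 0.0515 to 0.104 without LPS-CPD-4645 mouse 2, sham-vehicle mouse 2, 3 or 4, or LPS-vehicle mouse 1, 2 or 5. *Sp100*, a component of nuclear bodies, was at 2.81 to 4.46 CPM and 3.15 to 5.63 CPM, with overlap and a log2 difference of 0.36 (SE 0.23, adjusted p = 0.302).

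**Figure D3:**
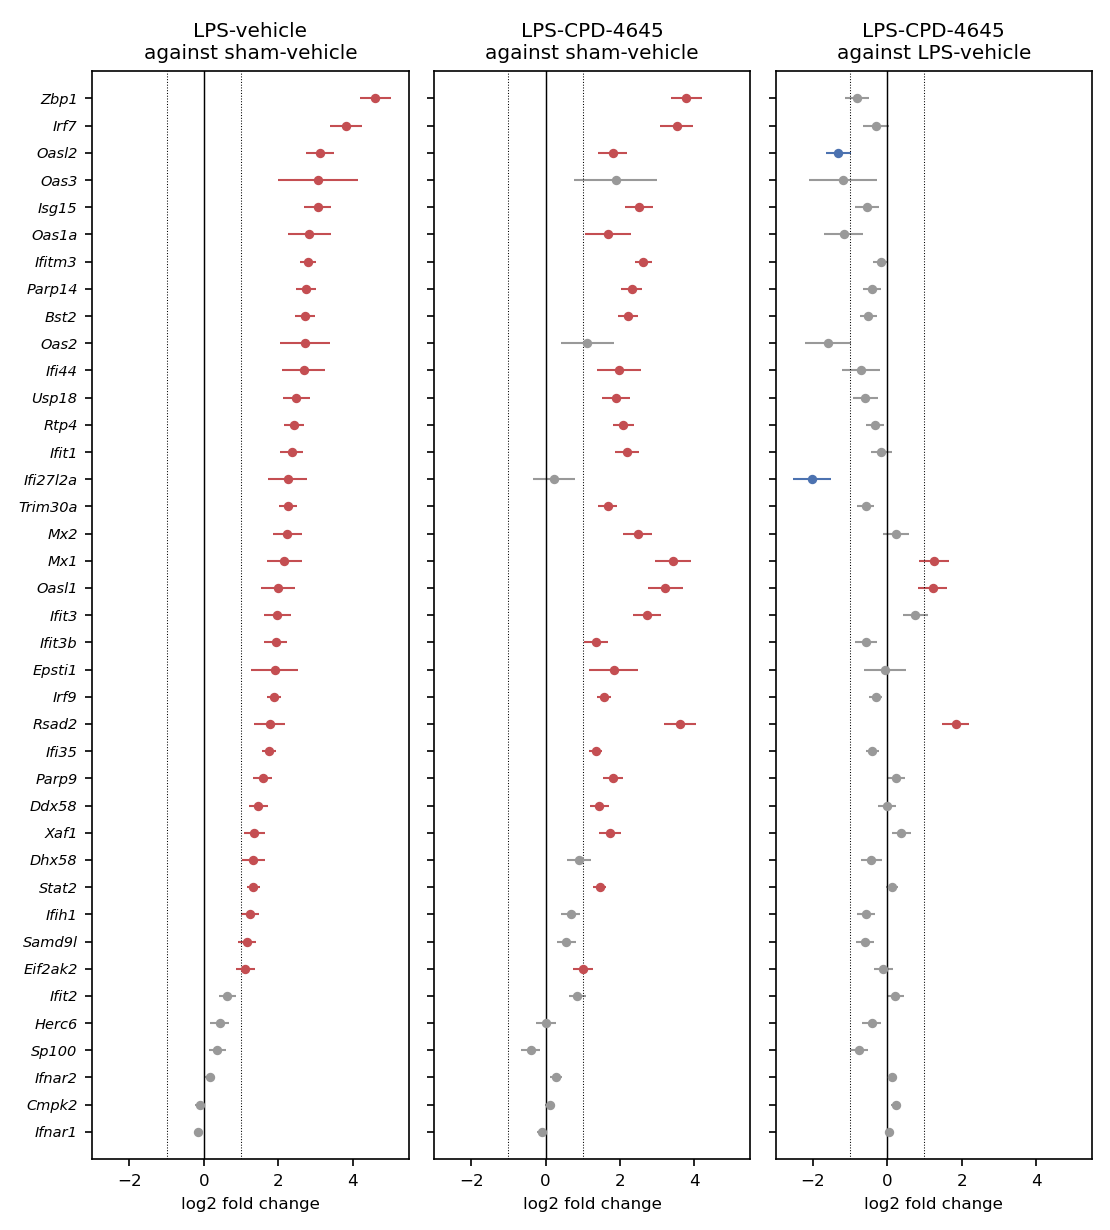
Log2 fold change of each tested member (point) with its SE (bar) in the 3 comparisons, from edgeR's quasi-likelihood fit of all 13 mice; red points were called higher, blue points called lower and grey points not called, and dotted lines mark a 2-fold change. The left panel holds 33 red points, the middle panel 27, and the right panel 3 red and 2 blue points.

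The mice of the LPS-vehicle group differed in the size of the response. As the median over the members of log2 CPM minus the sham-vehicle mean, the 4 sham-vehicle mice lay between −0.14 and 0.09, and LPS-vehicle mice 1 to 5 lay at 1.94, 2.71, 1.85, 1.35 and 1.49. Mouse 2 had the highest level of its group in 35 of 39 members, and mouse 4 the lowest in 20. Over the members, the median SD between LPS-vehicle mice was 0.51 log2 units, beside 0.22 over all genes tested. Without mouse 2, 30 of 38 tested members were higher than in sham-vehicle mice, and the median log2 fold change was 1.71.

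Markers of blood leukocytes moved in the same mice. The 10 neutrophil markers summed to 1.23 to 5.42 CPM in the sham-vehicle mice and to 82.0, 270.9, 105.7, 64.5 and 60.6 CPM in LPS-vehicle mice 1 to 5, with the highest value in mouse 2, and 7 of the 7 tested rose. The 10 monocyte and macrophage markers summed to 13.1 to 18.2 CPM and to 45.5 to 107.5 CPM, with the highest value in mouse 3, and 7 of 8 tested rose. No marker of these lists was at 0 in every mouse of a group. The 10 lymphocyte markers summed to 3.55 to 4.94 CPM in sham-vehicle and 3.25 to 4.66 CPM in LPS-vehicle mice, with *Nkg7* and *Ncr1* at 0 in all sham-vehicle mice and *Ms4a1* at 0 in all LPS-vehicle mice. The endothelial sum was 419 to 660 CPM and 481 to 1004 CPM, but its 8 markers went both ways: *Cdh5* (1.14) and *Ly6c1* (1.17) rose on the log2 scale, and *Itm2a* (−2.43) and *Tek* (−1.49) fell. Of the 8 pericyte and smooth muscle markers, the contractile genes *Acta2* (−1.15), *Myh11* (−1.22) and *Tagln* (−1.04) fell. This list also went both ways: 3 of the 8 lay above 0, up to 0.45, and 1 passed the adjusted p as higher without a 2-fold change. The microglial sum was 179 to 236 CPM and 126 to 226 CPM, with 2 of 7 markers called lower and none higher.

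RNA of brain parenchyma differed between these groups too. Neuronal markers summed to 8722 to 10020 CPM in sham-vehicle and 7443 to 8232 CPM in LPS-vehicle mice, and oligodendrocyte markers to 4450 to 6387 and 3158 to 4180 CPM. Astrocyte markers went the other way in sum, at 1283 to 1712 and 1864 to 2360 CPM, though 2 of 6 lay below 0 and 1 was called higher. None of these 3 sums overlapped between the groups. Of the 6 oligodendrocyte markers, however, 1 was called higher and 1 lower. Erythrocyte markers did not overlap either, at 468 to 957 and 239 to 461 CPM, while choroid plexus markers did, at 334 to 701 and 166 to 368 CPM. Mitochondrial genes took 6.47 to 12.7% of the reads in sham-vehicle and 4.84 to 7.05% in LPS-vehicle mice. The part of these cell types and of RNA quality in the response of the members was not tested.

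**Figure D4:**
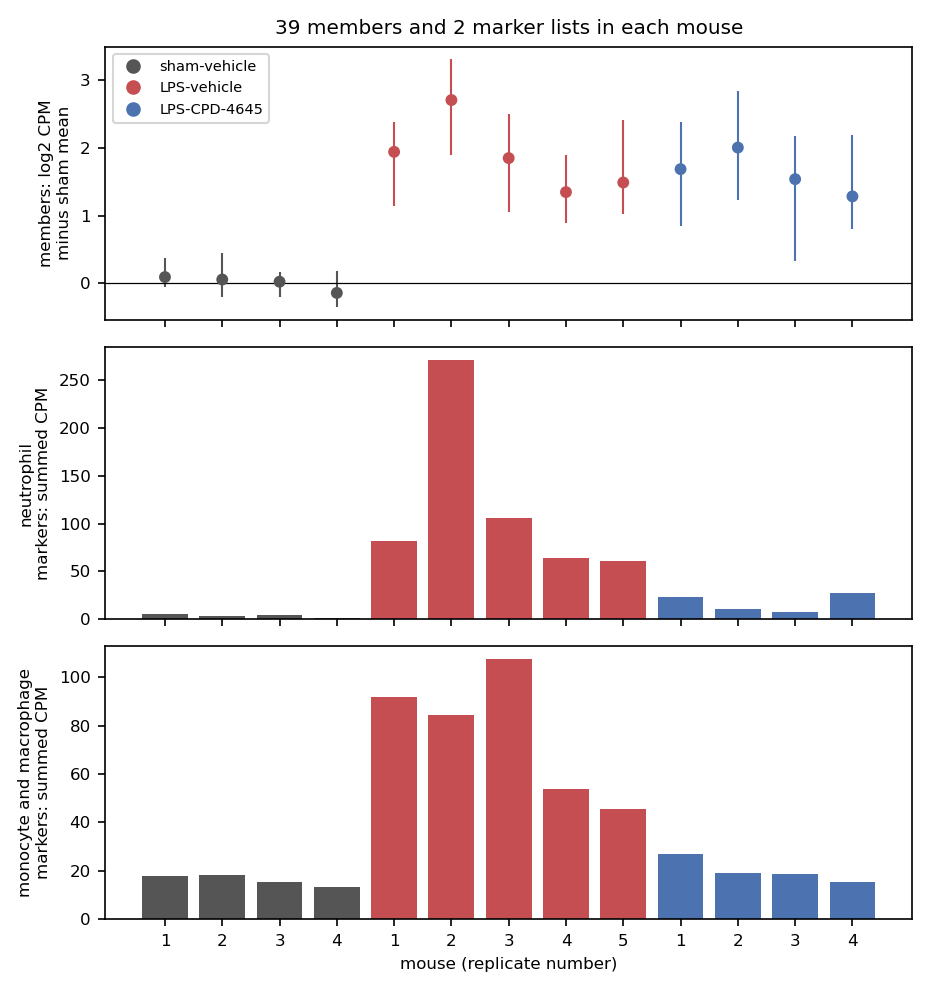
For each mouse, the median over the 39 tested members of log2 CPM minus the sham-vehicle mean, with bars from the lower to the upper quartile of the members (top), and the summed CPM of the 10 neutrophil markers (middle) and the 10 monocyte and macrophage markers (bottom). LPS-CPD-4645 mice hold 7.30 to 27.1 CPM of neutrophil markers, against 60.6 to 270.9 in LPS-vehicle mice, while their member medians of 1.29 to 2.01 lie within or just below the LPS-vehicle range.

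The second question was how far the response changed when CPD-4645 was given after each LPS dose. Against LPS-vehicle mice, 3 of 39 members were higher in LPS-CPD-4645 mice (7.69%), where 1.7% of all genes tested were, and 2 were lower (5.13%), where 4.19% of all genes were. The higher members were *Rsad2*, *Mx1* and *Oasl1*, and the lower ones were *Oasl2* and *Ifi27l2a*. The other 34 members were not called, with log2 differences from −1.59 to 0.76. The median over the members was −0.32, and −0.08 without LPS-vehicle mouse 2, beside −0.02 over all genes, and 12 of the 39 log2 differences were above 0, where 47.8% of all genes were. By the adjusted p alone 3 members were higher, against 14.1% of all genes, and 3 lower, against 16.4%, the third being *Sp100*. Only *Rsad2* and *Oasl1* had the whole LPS-CPD-4645 group above the LPS-vehicle group, against 11.1% of all genes, and no member had every mouse below, against 12% of all genes.

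*Rsad2* (chr12:26442746-26456452, minus strand; these positions are GRCm38, GENCODE M21) was at 5.22, 9.83, 4.92, 3.45 and 3.31 CPM in the LPS-vehicle mice and at 16.0, 31.6, 15.6 and 14.1 CPM in the LPS-CPD-4645 mice. The 4 treated mice all lay above the 5 others, and LPS-CPD-4645 mouse 2 stood apart from the rest of its group. The log2 fold change was 1.84 (SE 0.37, adjusted p = 0.00115), and leaving out any 1 mouse gave values between 1.49 and 2.22 with an adjusted p of at most 0.00882. By glmTreat, which tests against a change of 2-fold rather than against none, its adjusted p was 0.343.

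*Oasl1* (chr5:114923240-114937915, plus strand) was at 1.61, 2.56, 1.01, 0.821 and 1.19 CPM in the LPS-vehicle mice and at 2.61, 5.39, 2.71 and 2.98 CPM in the LPS-CPD-4645 mice. The groups did not overlap, but only just, and the log2 fold change was 1.22 (SE 0.39, adjusted p = 0.0238). It was not called without LPS-CPD-4645 mouse 2 (adjusted p = 0.134), LPS-vehicle mouse 4 (0.0575) or LPS-vehicle mouse 5 (0.0504).

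*Mx1* (chr16:97447035-97462907, minus strand) was at 0.996, 2.58, 1.64, 1.56 and 1.13 CPM in the LPS-vehicle mice and at 4.35, 6.29, 2.45 and 2.28 CPM in the LPS-CPD-4645 mice. LPS-vehicle mouse 2 lay above 2 of the treated mice. The log2 fold change was 1.27 (SE 0.40, adjusted p = 0.0241), and it was not called without LPS-vehicle mouse 1 (adjusted p = 0.0595) or 5 (0.0538), or without LPS-CPD-4645 mouse 1 (0.0511) or 2 (0.148).

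**Figure D5:**
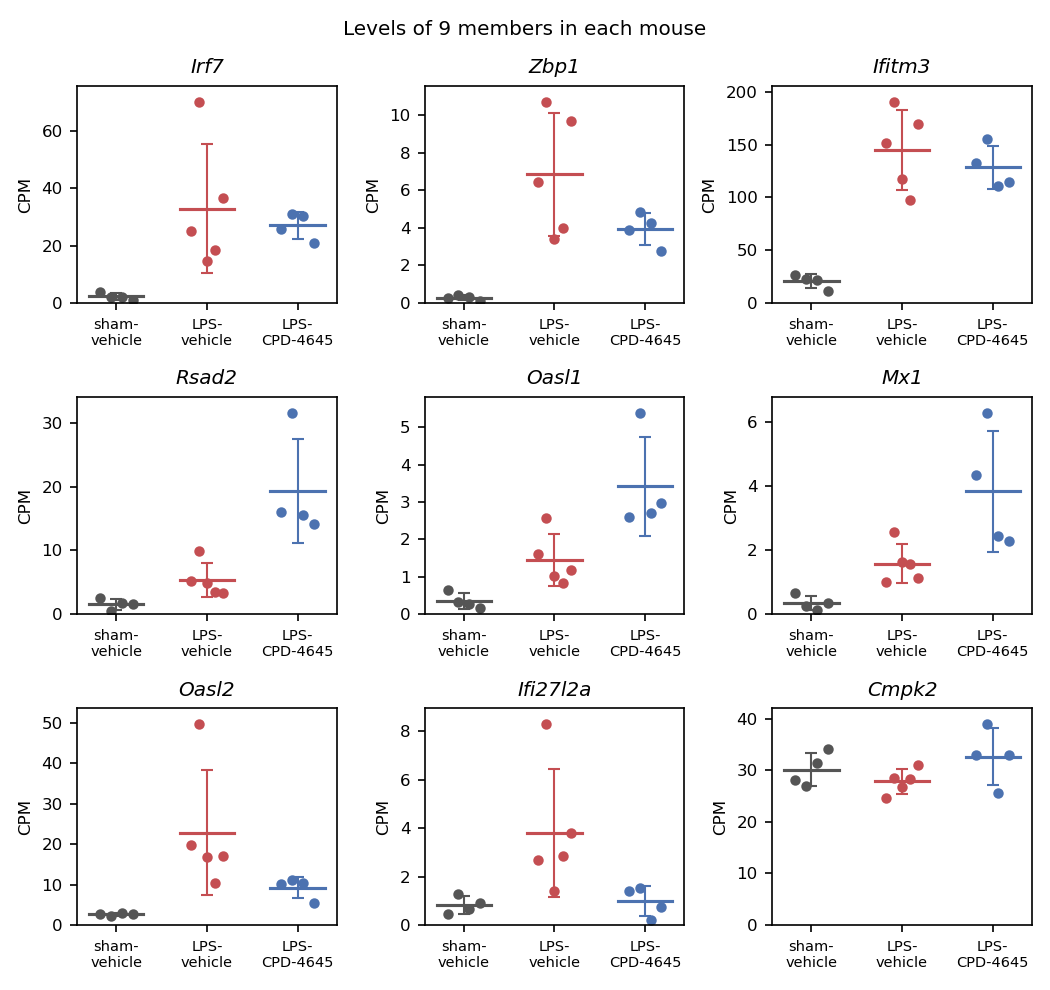
CPM of 9 members in each mouse (points), with the group mean (horizontal line) and SD (bars) for 4 sham-vehicle, 5 LPS-vehicle and 4 LPS-CPD-4645 mice; each y axis starts at 0. The middle line of panels holds the 3 members called higher in LPS-CPD-4645 than in LPS-vehicle mice, and *Oasl2* and *Ifi27l2a* in the bottom line were called lower, with 1 high LPS-vehicle mouse each.

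In the other direction, *Oasl2* (chr5:114896936-114912234, plus strand) was at 19.9, 49.7, 16.9, 10.4 and 17.1 CPM in the LPS-vehicle mice and at 10.0, 11.2, 10.3 and 5.49 CPM in the LPS-CPD-4645 mice. The treated mice were low, but LPS-vehicle mouse 4 lay among them. The log2 fold change was −1.31 (SE 0.34, adjusted p = 0.00698). Without LPS-vehicle mouse 2, the difference was −0.79 with an adjusted p of 0.0136, which is past the p threshold and short of a 2-fold change.

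*Ifi27l2a* (chr12:103442167-103443680, minus strand), a small gene induced by interferon in many cell types, was at 2.68, 8.29, 1.39, 2.85 and 3.81 CPM in the LPS-vehicle mice and at 1.42, 1.54, 0.226 and 0.746 CPM in the LPS-CPD-4645 mice. LPS-vehicle mouse 3, the shallowest library, lay within the treated range. The log2 fold change was −2.02 (SE 0.52, adjusted p = 0.00698), and it was −1.51 (adjusted p = 0.0279) without LPS-vehicle mouse 2.

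Members that were not called lay to either side of 0. The sensors ran from −0.82 for *Zbp1* (SE 0.32, adjusted p = 0.0605) to −0.01 for *Ddx58* (SE 0.24), and the sign of *Ddx58* changed with DESeq2's size factors (0.0013). *Oas2*, *Oas3* and *Oas1a* were at −1.59 (SE 0.62, adjusted p = 0.0601), −1.18 (SE 0.92) and −1.17 (SE 0.53), and *Oas2* was called lower by DESeq2 with all mice (−1.60, adjusted p = 0.0392) and by edgeR without LPS-CPD-4645 mouse 2 (0.0268) or LPS-vehicle mouse 4 (0.0291). Leaving out 1 mouse gave −2.28 to −1.23 for *Oas2* and, where it was still tested, −2.95 to −0.75 for *Oas3*. *Ifit3* was at 0.76 (SE 0.33, adjusted p = 0.0871) and was called higher with sample quality weights (1.11, adjusted p = 0.0114) and without LPS-vehicle mouse 1 (adjusted p = 0.0127), while its near-copy *Ifit3b* was at −0.57 (SE 0.29). Their summed level was 18.7 to 48.8 CPM in LPS-CPD-4645 mice and 14.99 to 33.8 CPM in LPS-vehicle mice, with overlap.

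Among the members, the signalling genes *Irf7*, *Irf9*, *Stat2* and *Usp18* were not called between the LPS groups by edgeR, limma-voom or DESeq2. *Irf7* was at 25.8, 31.1, 30.4 and 20.9 CPM in LPS-CPD-4645 mice, inside the LPS-vehicle range, with a log2 difference of −0.30 (SE 0.35, adjusted p = 0.55). *Irf9*, *Stat2* and *Usp18* were at −0.31 (SE 0.18), 0.13 (SE 0.16) and −0.59 (SE 0.33). *Ifitm3* was at −0.18 (SE 0.20) and *Isg15* at −0.55 (SE 0.32). *Sp100* passed the p threshold at −0.76 (SE 0.24, adjusted p = 0.0201) without a 2-fold change. These SEs leave room for differences other than those fitted, including falls of about 2-fold for *Irf7*, *Usp18* and *Isg15*. The absence of a call is not evidence of equal levels.

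The neutrophil and monocyte markers were far lower in LPS-CPD-4645 than in LPS-vehicle mice. The neutrophil sum was 23.2, 10.9, 7.30 and 27.1 CPM in LPS-CPD-4645 mice 1 to 4, and 7 of 7 tested markers fell, for example *S100a9* by 3.12 on the log2 scale (SE 0.49, adjusted p = 0.000186). The monocyte and macrophage sum was 15.5 to 27.0 CPM, and 4 of 8 tested markers fell. In the LPS-CPD-4645 mice the neuronal sum was 7828 to 10050 CPM, the oligodendrocyte sum 3688 to 4762, the astrocyte sum 1700 to 2190, the microglial sum 123 to 149 and the endothelial sum 596 to 762 CPM, each overlapping the LPS-vehicle range. Of 7 microglial markers, 1 was called higher and 1 lower than in LPS-vehicle mice, and 1 of 6 oligodendrocyte markers was called lower. Choroid plexus markers summed to 242 to 778 CPM with a median of 431, beside a median of 177 CPM in LPS-vehicle mice, erythrocyte markers to 325 to 705 CPM, lymphocyte markers to 2.63 to 4.93 CPM, and mitochondrial genes took 3.97 to 8.17% of the reads. LPS-CPD-4645 mouse 2, which had the highest level of its group in 29 of 39 members, had the second lowest neutrophil sum of its group. The part of leukocytes and of the other cell types in the differences of the 5 called members was not tested.

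Compared with sham-vehicle mice, 27 of 39 members were higher in LPS-CPD-4645 mice (69.2%), where 6.11% of all genes were, and none was lower, where 4.98% of all genes were. None was lower at an unadjusted p under 0.05 or by limma-voom or DESeq2. The adjusted p alone passed 30 higher, against 19.5% of all genes, and none lower, against 19.3%. The groups were wholly apart, with LPS-CPD-4645 mice higher, in 25 members, against 18.7% of all genes, and with them lower in none, against 18.8%. The median log2 fold change was 1.74. The neutrophil sum lay above the sham-vehicle range without overlap (7.30 to 27.1 against 1.23 to 5.42 CPM), with 3 of 7 tested markers higher, and the microglial sum lay below it without overlap (123 to 149 against 179 to 236 CPM), with 3 of 7 lower. Their part in the members' levels was not tested. Both LPS groups were compared with the same 4 sham-vehicle mice, so the comparisons are not independent, and the values are given side by side without a test of their likeness.

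In LPS-CPD-4645 mice against sham-vehicle mice, *Zbp1* was at 3.78 (SE 0.43), *Rsad2* at 3.60 (SE 0.43), *Irf7* at 3.52 (SE 0.44), *Mx1* at 3.43 (SE 0.49) and *Oasl1* at 3.21 (SE 0.47). For *Rsad2*, *Mx1* and *Oasl1* the values after LPS alone were 1.77, 2.16 and 2.00. *Ifi27l2a* was at 0.23 (SE 0.56, adjusted p = 0.777) with CPD-4645 and at 2.25 without it. The members called after LPS alone and not with CPD-4645 against sham-vehicle mice were *Oas2*, *Oas3*, *Ifih1*, *Dhx58*, *Ifi27l2a* and *Samd9l*, of which *Ifih1* (0.67) and *Dhx58* (0.90) passed the p threshold alone and *Dhx58* had groups that did not overlap. *Ifit2* was at 0.85 (SE 0.24, adjusted p = 0.00838), short of 2-fold, and was called without LPS-CPD-4645 mouse 3 (1.05).

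A few calls in this comparison rested on single mice or on the method. *Oas1a* (1.67, SE 0.62, adjusted p = 0.0395) had an adjusted p of 0.0655 to 0.113 without LPS-CPD-4645 mouse 1 or 2 or sham-vehicle mouse 1, 2 or 4, of 0.154 by limma-voom and of 0.0507 with sample quality weights. Without both shallowest libraries the adjusted p of *Oas1a* was 0.114. *Oasl2* (1.80, SE 0.38, adjusted p = 0.00108) had an adjusted p of 0.0508 by limma-voom. *Epsti1* (1.83, SE 0.65, adjusted p = 0.0326) had one of 0.0756 to 0.0923 without sham-vehicle mouse 3 or LPS-CPD-4645 mouse 2 or 3. *Eif2ak2* (1.01, SE 0.28) fell under 2-fold, to 0.90 to 0.98, without sham-vehicle mouse 1, 3 or 4 or LPS-CPD-4645 mouse 1, 2 or 4. *Dhx58* was called without sham-vehicle mouse 2 (1.13, adjusted p = 0.0143).

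The interferon genes themselves could not be followed. Of 21 interferon genes listed, all fell short of the filter on low counts, and 14 had no read in any library. The other 7 had at most 6 reads over all 13 mice and at most 4 in a library. *Ifnb1*, which encodes interferon beta, had 1 read in a sham-vehicle and 1 in an LPS-CPD-4645 mouse, and *Ifng*, which encodes the type II interferon, had 3 reads in a single LPS-CPD-4645 mouse. The level that 3 reads stand for ran from 0.0544 CPM in the deepest to 0.384 CPM in the shallowest library, so changes in interferon transcripts below about these levels at 28 h were not detectable at this depth.

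Of the 14 tested genes of interferon receptors and JAK-STAT signalling outside the members, 6 rose after LPS (42.9%), where 4.68% of all genes did. *Socs3*, a feedback inhibitor of cytokine receptors, rose from 6.68 ± 1.99 to 87.4 ± 43.5 CPM (log2 fold change 3.69, SE 0.34), *Ptpn6*, the phosphatase SHP-1, rose by 2.20 (SE 0.18) and *Ifnlr1*, the receptor chain for type III interferon, by 1.48 (SE 0.43).

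Of the 18 tested genes that lead from nucleic acid and LPS sensing to interferon induction, 6 rose after LPS (33.3%), where 4.68% of all genes did, and 2 fell with CPD-4645 against LPS alone (11.1%), where 4.19% of all genes did. *Ikbke*, *Irf1* and *Myd88* rose by log2 fold changes of 3.17 (SE 0.36), 2.05 (SE 0.31) and 1.75 (SE 0.18). *Irf3*, the constitutive factor that turns on *Ifnb1*, was at 21.9 ± 3.94 CPM in sham-vehicle, 27.6 ± 3.98 CPM in LPS-vehicle and 12.7 ± 1.73 CPM in LPS-CPD-4645 mice. Its log2 difference was 0.34 (SE 0.14, adjusted p = 0.101) after LPS, and it fell by 1.13 with CPD-4645 against LPS alone (SE 0.15, adjusted p = 3.14e-05), without overlap between these groups. Against sham-vehicle mice its log2 difference was −0.80 (SE 0.15, adjusted p = 0.000452), short of 2-fold. *Irf3* shares 88 exon bases with *Bcl2l12* on the opposite strand. The other gene that fell was *Mb21d1*, the DNA sensor cGAS (−1.19, SE 0.43, adjusted p = 0.046), which was chosen for mention after its value was seen.

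A further list of 55 tested interferon-stimulated genes outside the members held 27 called higher after LPS (49.1%), where 4.68% of all genes were. Its median was 0.97 on the log2 scale. Those with the largest fitted change were *Ifi204*, *Slfn4* and *Ms4a4c*, whose sham-vehicle means were 0.0442, 0.0499 and 0.0299 CPM and whose LPS-vehicle means were 2.17 ± 1.51, 3.36 ± 1.86 and 1.58 ± 0.779 CPM. Fitted changes from such low levels depend on the prior count, so their values and their order are not given. With CPD-4645 against LPS alone, 5 of the 55 fell (9.09%), where 4.19% of all genes did. These were *Slfn4* and *Ms4a4c* and, named after their values were seen, *Slfn1*, *Ms4a6b* and *Oas1b*; *Ms4a6b* fell from 9.43 ± 1.51 to 2.35 ± 0.952 CPM, by 2.05 on the log2 scale (SE 0.35, adjusted p = 0.00033).

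The members were also read by whether their window held the ISRE letters. After LPS, 14 of 14 members with a match were higher, with a median log2 fold change of 2.11, as were 9 of 15 tested members with a window and no match (median 1.36) and 10 of 10 without a window (median 2.34), where 4.68% of all genes tested were. The differences between these subsets were not tested. For LPS-CPD-4645 against LPS-vehicle mice the medians were −0.34 with a match, −0.30 without and −0.42 where there was no window. Of the members called with CPD-4645, *Rsad2* held a match, *Oasl1* and *Oasl2* had windows without one, and *Mx1* and *Ifi27l2a* had no window. *Irf7*, *Irf9*, *Xaf1* and *Cmpk2* had windows without these letters. The windows are short, and no match says only that these letters are not in them.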

How the data were processed

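Members and gene lists were chosen with earlier results of these data known, and no list here is independent evidence of its direction. The authors aligned stranded reads to mm10 (GRCm38) with STAR 2.5.2a and deposited whole-number counts per gene on GENCODE M9, unnormalized, 1 column per mouse; which strand column was kept is not given in the sources used here, so overlapping genes are named. Groups and replicate numbers came from the labels. Symbols and positions came from GENCODE M21, which matched 47224 of 47643 identifiers.

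Genes passed filterByExpr (minimum count 10, minimum total 15). The 13 libraries were fitted together in edgeR 4.0.16 (R 4.3.3) with TMM factors and no covariate, by the quasi-likelihood test; a call needed a p of 0.05 or less after Benjamini-Hochberg adjustment over all 17285 genes and a 2-fold change. The SE is the log2 fold change divided by the square root of the F statistic. CPM and RPKM use TMM-scaled library sizes and the union of exons. The fit was tested on simulated data. Alternatives were other normalizations and filters, limma 3.58.1, DESeq2 1.42.0, a replicate block, each mouse left out and, chosen after the depths were seen, both shallowest libraries left out. Every member is named; from each further list the 3 largest rises and falls called after LPS are named, with *Irf1*, *Irf3*, *Ifnb1* and *Ifng*; 1 further gene of this rule is not reported here. Of 22 replicate pairs within groups, none agreed within sampling noise. Summed levels of marker lists not given above ran over 140 to 265 CPM (pericyte and smooth muscle), 215 to 450 CPM (plasmacytoid dendritic cell, without *Bst2*) and 3.69 to 8.17 CPM (platelet) in the 13 mice, with overlap of these sums between sham-vehicle and LPS-vehicle mice. Single plasmacytoid dendritic cell markers went both ways. Of 5 tested, *Bst2* included, 2 were called higher and 1 lower after LPS. With CPD-4645, 3 were higher and 1 lower against sham-vehicle mice, and 1 was higher against LPS-vehicle mice.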

Additional observations from a re-analysis of the deposited data

Results flagged for a closer look

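In 8 of 117 groups of 4 or 5 mice (39 members in 3 groups), 1 mouse lay farther from the others than Dixon's 95% critical value allows, where chance gives about 5.85. Distances were taken on the log2 CPM scale, and on the CPM scale other mice could be flagged. *Rsad2* was at 31.6 CPM in LPS-CPD-4645 mouse 2, with the others at 14.1 to 16.0. LPS-CPD-4645 mouse 4 was low for 3 members: *Oasl2* at 5.49 CPM (others 10.0 to 11.2), *Stat2* at 58.1 CPM (others 80.3 to 84.3) and *Samd9l* at 2.79 CPM (others 4.67 to 4.93). *Eif2ak2* was at 4.71 CPM in LPS-CPD-4645 mouse 3 (others 7.83 to 8.64). Sham-vehicle mouse 2 was low for *Oas2*, at 0.0804 CPM (others 0.239 to 0.285), and for *Herc6*, at 2.17 CPM (others 5.45 to 5.93). *Ifnar1* was at 34.8 CPM in LPS-vehicle mouse 3, the shallowest library (others 48.1 to 52.0). On the log2 scale a difference of this size was low in 7 cases and high in 1, and none of the causes was tested.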

How the results depend on the processing

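There were 23 alternatives, 13 of which left out 1 mouse. Scarce members that missed the filter or had no adjusted p in some of them have fewer values, 22 for *Oasl1* and *Epsti1*, 21 or 22 for *Oas1a* and *Oas2*, and 19 or 20 for *Oas3*. The direction of the members' median log2 fold change was kept in all of them. It ran from 1.71 to 2.14 for LPS-vehicle against sham-vehicle, from 1.57 to 1.92 for LPS-CPD-4645 against sham-vehicle and from −0.46 to −0.08 for LPS-CPD-4645 against LPS-vehicle mice when 1 mouse was left out, the last value being without LPS-vehicle mouse 2. The 10 other alternatives, among them a fit of only the groups compared and one without both shallowest libraries (chosen after seeing the data), gave 1.91 to 2.07, 1.60 to 1.77 and −0.38 to −0.20. The counts of 33 and 27 members called higher against sham-vehicle mice were 30 to 33 and 24 to 27 without 1 mouse. They were 17 and 16 by glmTreat, which by construction asks for evidence of a change beyond 2-fold. For LPS-CPD-4645 against LPS-vehicle mice glmTreat called 0 higher and 0 lower members (0.174% and 0.202% of all genes), DESeq2 called 3 and 3, limma with quality weights called 4 and 2, and leaving out 1 mouse gave 1 to 3 higher, with 1 without LPS-CPD-4645 mouse 2 or LPS-vehicle mouse 5, and 1 to 3 lower, with 1 without LPS-vehicle mouse 2. None of the 3 higher and 2 lower calls was kept in every alternative that gave it a value, against 17 of 33 and 16 of 27 in the comparisons with sham-vehicle mice. Limma-voom did not call *Oasl2* for LPS-CPD-4645 against sham-vehicle mice (adjusted p = 0.0508).

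No clear pairing of the mice by replicate number was seen. Deviations of 12 same-numbered pairs correlated at −0.0346 to 0.114, and those of 44 other pairs at −0.137 to 0.124. Ranges that overlap in this way do not settle whether mice were paired. With the replicate number as a block, 32 and 25 members were called higher against sham-vehicle mice, and 2 higher and 2 lower between the LPS groups, where *Mx1* had an adjusted p of 0.0598. Under the block *Epsti1* was no longer called against sham-vehicle mice in the LPS-vehicle (1.77, adjusted p = 0.111) or the LPS-CPD-4645 group (1.80, adjusted p = 0.0718). *Oas1a* was no longer called in the LPS-CPD-4645 group against sham-vehicle mice (1.60, adjusted p = 0.0609).

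All changes of sign were in differences that had not been called, and their cause was not tested. For LPS-CPD-4645 against LPS-vehicle mice, *Ddx58* was at 0.0013 with DESeq2 size factors, 0.0036 by DESeq2, 0.0378 with sample quality weights and 7e-04 with those groups alone. *Ifit1* was at 0.0961 with quality weights *Ifnar1* at -2e-04 by limma-voom and *Epsti1* at 0.0323 with the replicate block. Without both shallowest libraries *Ifnar1* was at −0.0438 and *Xaf1* at −0.009, and the adjusted p of *Mx1* was 0.0673. Leaving out 1 mouse gave −0.4446 to 0.1499 for *Ifit1*, −0.0036 to 0.4122 for *Ifit2*, −0.0095 to 0.6681 for *Mx2*, −0.4727 to 0.1824 for *Irf7*, −0.2552 to 0.192 for *Ddx58*, −0.0106 to 0.384 for *Parp9*, −0.2643 to 0.192 for *Epsti1*, −0.2279 to 0.0667 for *Eif2ak2* and −0.0447 to 0.118 for *Ifnar1*. Against sham-vehicle mice it gave −0.2353 to 0.1269 for *Herc6*, which was at -9e-04 with no filter, and −0.1422 to 0.5927 for *Ifi27l2a*. In the shallowest library 3 reads stand for 0.384 CPM, which is above the sham-vehicle means of *Zbp1*, *Oasl1*, *Mx1*, *Epsti1*, *Oas1a*, *Oas2*, *Oas3* and the untested *Dtx3l*.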

Other observations

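Of 10 pairs of members that are neighbours on a chromosome, the log2 ratio of levels did not overlap between the 2 LPS groups in 3 (*Oasl2* and *Oasl1*, *Rsad2* and *Cmpk2*, *Parp14* and *Parp9*) and overlapped in 7. Of all single genes, 11.1% were wholly higher and 12% wholly lower between these groups, and the share over other neighbouring genes was not computed. The pairs were chosen for mention after their values were seen, and the differences were not tested. *Oasl2* and *Oasl1* lie 11006 bases apart on chromosome 5. The log2 ratio of *Oasl2* to *Oasl1* in CPM was 1.92, 2.56, 3.14 and 3.64 in the sham-vehicle mice and 3.57, 4.24, 3.97, 3.56 and 3.76 in the LPS-vehicle mice. It was 1.92, 1.05, 1.90 and 0.87 in the LPS-CPD-4645 mice, which did not overlap the LPS-vehicle mice. A ratio between genes shows unequal change and not which of them changed.

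*Rsad2* and *Cmpk2* lie 12752 bases apart on chromosome 12. The log2 ratio of *Rsad2* to *Cmpk2* was −3.45, −5.83, −4.08 and −4.41 in sham-vehicle, −2.22, −1.54, −2.43, −3.01 and −3.20 in LPS-vehicle and −1.04, −0.31, −0.71 and −1.23 in LPS-CPD-4645 mice. The 3 groups did not overlap. The ratio of *Parp14* to *Parp9* was −1.16 to 0.51 in sham-vehicle, 0.84 to 1.22 in LPS-vehicle and 0.12 to 0.47 in LPS-CPD-4645 mice, and the first and last of these ranges overlapped.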
